A study of Notophthalmus viridescens with 18 samples.

Results

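The transcripts described here are 28 of the 27395 entries in the newt transcriptome that were abundant in cultured myotubes, scarce in the mononucleate cells they form from, and held at 0.8 or more of their level when the myotubes were given high serum. They were chosen on scaled counts, that is, estimated read counts divided by a size factor for each library, averaged over the 3 libraries of a group. A transcript was taken when its mean in myotubes in fresh low serum (MT_0.25%) was at least 100, was at least 20 times its mean in proliferating cells (PRO) and in senescent cells (SEN), and when its mean in myotubes in high serum (MT_10%) was at least 0.8 of that in MT_0.25%. These conditions on the abundance in myotubes were met by 173 transcripts before the one on serum was applied. Of them 143 lay below 0.8 under serum and 30 did not, and of the 30 the muscle creatine kinase Ckma and the myosin heavy chain Myh3.3 were set aside by name, as was Myh3.1, which lay below 0.8 in any case. Since PRO, SEN, MT_0.25% and MT_10% chose the transcripts, their levels in these groups are a description and were not tested.

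All cells were A1, a line from limb mesenchyme of the newt Notophthalmus viridescens that fuses into multinucleate myotubes when serum is low, and bulk RNA from 18 libraries was sequenced, 3 in each of 6 groups. PRO cells were kept in 10% fetal calf serum (FCS) with the vehicle DMSO and harvested on day 12. SEN cells were given 20 µM etoposide, a DNA-damaging drug, for 24 h together with 1 µM nutlin, an inhibitor of the p53 antagonist MDM2, then nutlin alone, also in 10% FCS, and were harvested on day 12. In the paper's methods the nutlin came after the etoposide. Myotubes differentiated for 5 days in 0.25% FCS and were then held for 3 days, to day 8, in 1 of 4 media. These were fresh medium with 0.25% FCS (MT_0.25%), medium with 10% FCS (MT_10%), and low-serum medium, again 0.25%, that proliferating or senescent cells had conditioned over 48 h. The last groups, MT_0.25%_PRO_CM and MT_0.25%_SEN_CM, are called PRO CM and SEN CM below. Myotubes were passed through a 100 µm filter and caught on a finer one (30 µm in the labels), whereas PRO and SEN cells were unfiltered and their RNA was purified with a different column size, so that differences between myotubes and cells cannot be told apart from these steps. In such bulk samples, fewer cells of a type and less RNA per cell cannot be told apart either. Nothing in the sources used here says whether replicates were separate cultures, so p-values measure the spread between these libraries only.

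Skeletal muscle cells form by withdrawal of myoblasts from the cell cycle and their fusion, under transcription factors of the myogenic regulatory family. The fused cell then makes contractile filaments, and intermediate filaments of desmin tie these to one another and to the membrane. Newt myotubes differ from those of mammals in that serum can bring their nuclei back into the cell cycle, which makes them a model of muscle dedifferentiation. The 28 transcripts hold myotube products whose level in high serum stood at 80% or more of that in fresh low serum on scaled counts.

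Estimated counts per library ran from 20609828 to 62991718, and levels were compared after division by the size factors. The myotube identity was seen in 4 markers, the myogenin transcript Myog and the 3 set aside, whose summed scaled counts were 26486 to 39690.5 over the MT_0.25% libraries and 2121 to 2940 over the PRO libraries. The sums were 1232 to 1510 in SEN and 30563 to 35293 in MT_10%. In PRO CM (18623 to 23907) and SEN CM (20159 to 23247) they were below every MT_0.25% library. In MT_0.25%, PRO CM and SEN CM the means of Myog were 14852, 14187 and 14529, and those of Ckma 2134, 2014 and 1850. Those of Myh3.1 were 8482, 2313 and 2361, and those of Myh3.3 7429, 2448 and 2689. In MT_10% the means were 16270 for Myog and 3992 for Ckma, above MT_0.25%, and 5826 for Myh3.1 and 6135 for Myh3.3, below it. The summed markers therefore hide changes in opposite directions under serum. They also do not stand for all muscle transcripts, since 8 of 10 in the contractile filament list described below, Myh3.1 among them, were below 0.8 in serum. A panel of 17 cell cycle transcripts summed to 37631 to 44239.9 in PRO, 2958 to 3315 in SEN, 3913 to 7568 in MT_0.25%, 25226 to 27175 in MT_10%, 3681 to 4183 in PRO CM and 8172 to 9538 in SEN CM. No marker of either list had a group mean of 0. The level of the 28 transcripts under serum is thus set beside a cell cycle panel at 63.0% of its PRO mean in MT_10% against 13.4% in MT_0.25%.

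Names are those of the closest protein in another species, or of the newt where stated. Of the 28 transcripts, 11 had no protein hit and 5 a hit without an informative name, which left 12 with a name that says something of the product. The length given for an entry was the same in every library for 25.6% of entries only, and the reading frame behind the row of names ended within the longest length given for 12 of the 28. For the others that frame ended beyond the longest length given, and a name is less sure. Among the informative names these were Growth arrest-specific 2 like 1, Uridine phosphorylase 1, Ornithine decarboxylase 2 and Castor zinc finger 1. The R2 retrotransposon polyprotein, the myogenic regulatory factor and the cation channel TRPV2 were others. For Growth arrest-specific 2 like 1 the frame ended at 3358, and the longest length given was 444.

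As a set the 28 transcripts took 0.829% to 1.05% of the scaled counts of each MT_0.25% library and 0.738% to 0.826% in MT_10%. Their share was 0.281% to 0.414% in PRO CM and 0.283% to 0.417% in SEN CM, below every MT_0.25% and MT_10% library. PRO libraries held 0.0048% to 0.0057% and SEN libraries 0.0074% to 0.0107%. MT_0.25% means ran from 114 scaled counts for the unnamed comp2747908_c0_seq1 to 70749 for the unnamed comp2776154_c0_seq1. On the TPM scale, which corrects for length and depth, the highest mean level in MT_0.25% was that of the unnamed comp2903999_c0_seq1 at 1976 TPM, followed by comp2776154_c0_seq1 at 1960.3 TPM, and the lowest was that of Smoothelin-like protein 1 at 1.17 TPM.

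The scale moved all transcripts, and with them the 28. Over the 13278 transcripts with an MT_0.25% mean of at least 100 scaled counts, the median ratio to MT_0.25% was 1.15 under serum, 1.02 in PRO CM and 1.10 in SEN CM on scaled counts, but 0.977, 0.730 and 0.595 on TPM. Percentages of the MT_0.25% level are on scaled counts unless TPM is named. The mean of 7 of the 28 in SEN CM, 1 in PRO CM and 4 under serum lay on the other side of the MT_0.25% mean on TPM, and these are stated where the direction is given.

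**Figure D1:**
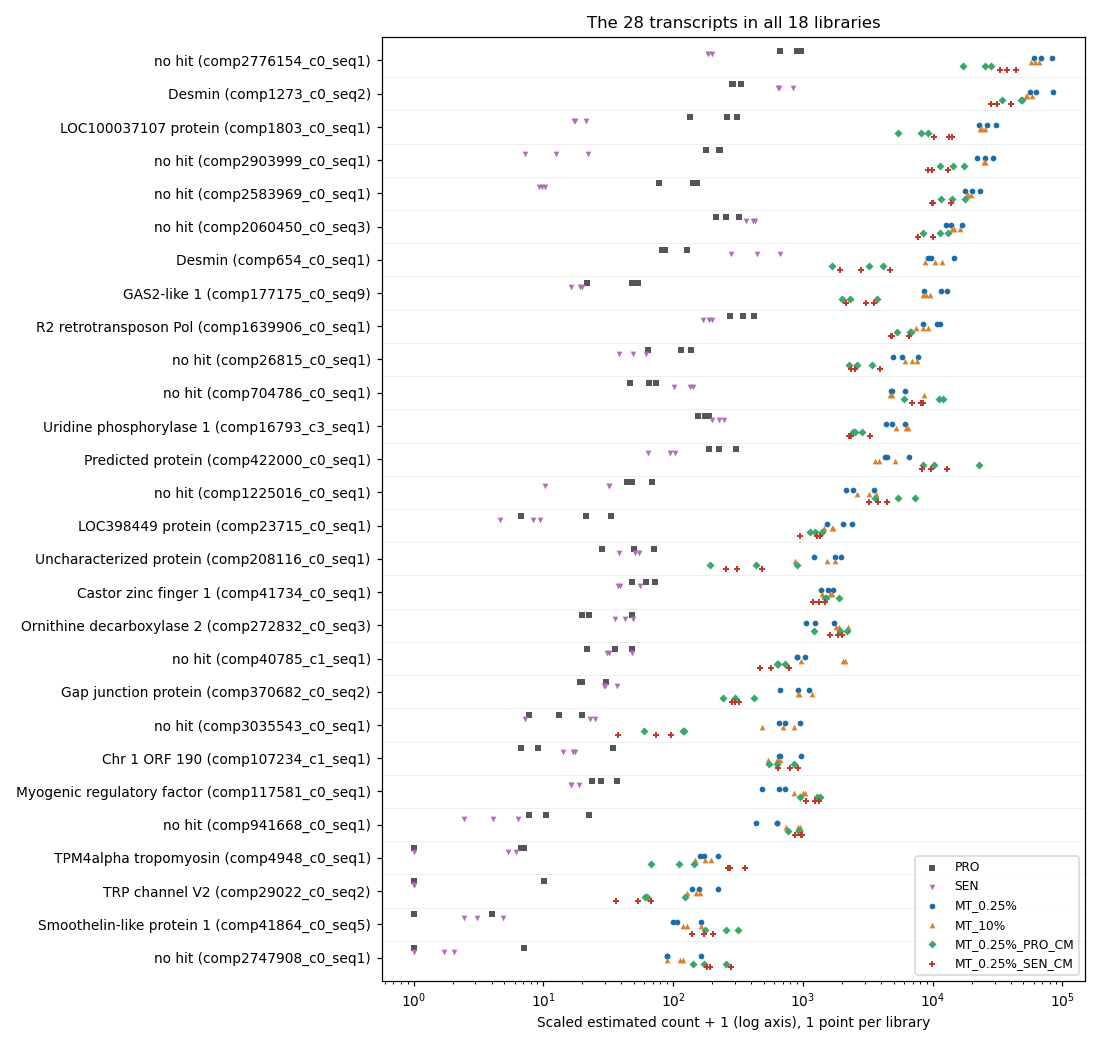
Scaled estimated counts plus 1 (log axis) of the 28 transcripts, 1 point for each of the 18 libraries, marked by group and ordered by the MT_0.25% mean from 70749 to 114. In every row the PRO and SEN points lie to the left of the myotube points, closest for comp3035543_c0_seq1, whose conditioned medium libraries came down to 36.5.

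Desmin, the intermediate filament protein of muscle, was the leading named product and was represented by 2 entries whose closest hit was the same Xenopus protein. The longer, comp1273_c0_seq2, held 286, 281 and 333 scaled counts in PRO and 832, 657 and 647 in SEN. It reached 84893, 56635 and 63018 in MT_0.25% and 53655, 58432 and 52033 in MT_10%. All 3 SEN libraries were above all 3 PRO libraries, and the serum libraries overlapped those in fresh medium, with a ratio of means of 0.802 that lay just inside the limit of 0.8. On TPM they were all below those in fresh medium, at 73.9%.

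The shorter desmin entry, comp654_c0_seq1, gave 14657, 9145 and 9681 scaled counts in MT_0.25% and 8784, 11892 and 10485 in MT_10%. In PRO it had 80.7, 85.5 and 127 and in SEN 667, 281 and 445, so SEN was again above PRO in every library. The MT_0.25% to SEN ratio of 24.0 for this entry was far below its MT_0.25% to PRO ratio of 114. Per length the shorter entry was the more abundant in MT_0.25%, at 1176 TPM against 799 TPM, but reads of alike entries may have been divided between them.

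In conditioned medium both desmin entries stood below their level in fresh low serum, the shorter one further. The longer held 47930.3, 34131 and 49167 scaled counts in PRO CM and 31353, 28158 and 40206 in SEN CM, which were 64.2% and 48.8% of its MT_0.25% mean. The shorter had 1666, 4134 and 3234 in PRO CM and 1944, 2795 and 4719 in SEN CM, or 27.0% and 28.2%. For either entry all 6 libraries in conditioned medium were below all 3 in fresh medium.

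Growth arrest-specific 2 like 1, which in mammals links actin to microtubules, had shares in conditioned medium near those of the shorter desmin entry. Its entry comp177175_c0_seq9 had 12951, 8570.3 and 11545 scaled counts in MT_0.25% and 8819, 9604 and 8493 in MT_10%. In PRO CM it had 2000.4, 3747 and 2295, and in SEN CM 2157, 3535 and 3072. The conditioned medium means were 24.3% and 26.5% of that in MT_0.25%, without overlap. On TPM the serum libraries were all below the fresh ones, at 72.3%. PRO and SEN means were 40.2 ± 16.9 and 17.4 ± 1.76 (SD, n = 3).

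Smoothelin-like protein 1, a calponin-homology protein named from mouse, stood higher in PRO CM than in fresh low serum. The entry comp41864_c0_seq5 was scarce, with 164, 99.0 and 106 scaled counts in MT_0.25% and 162, 126 and 118 in MT_10%. It stood at 316, 176 and 253 in PRO CM and at 203, 138 and 172 in SEN CM. The PRO CM libraries were all above those in fresh medium, with a mean of 202%, while the SEN CM libraries overlapped them at 139%, and at 81.0% on TPM. No read was assigned to it in 2 of the 3 PRO libraries.

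A tropomyosin, named TPM4alpha from the axolotl, was the one transcript of the contractile filament list among the 28. Tropomyosins lie along actin filaments, and in mammals those of the TPM4 gene are found largely in the cytoskeleton. Its entry comp4948_c0_seq1 held 220.0, 160.0 and 171 scaled counts in MT_0.25%, 148, 196 and 174 under serum, 111, 66.5 and 143 in PRO CM and 356, 266 and 273 in SEN CM. On scaled counts all PRO CM libraries were below the MT_0.25% libraries and all SEN CM libraries above them, whereas on TPM the SEN CM libraries (8.74, 7.48 and 9.76 TPM) overlapped those in fresh medium (9.20, 9.01 and 10.6 TPM) with a lower mean, 8.66 against 9.62 TPM. Divided by the median ratio of all transcripts, the SEN CM ratio was 1.48 on scaled counts and 1.51 on TPM. PRO and SEN each had 1 library without a read, and their means were 3.94 and 3.19.

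Among transcription regulators, 2 of the 3 that met the conditions on abundance also met the one on serum. The first, comp117581_c0_seq1, was named from a newt fragment called myogenic regulatory factor, the family of basic helix-loop-helix proteins that switch on muscle genes. It gave 26.9, 36.1 and 22.9 scaled counts in PRO and 15.5, 17.7 and 15.2 in SEN. It gave 659, 488 and 729 in MT_0.25%, 850.1, 999 and 1029 under serum, 1355, 958 and 1281 in PRO CM, and 1235, 1057 and 1334 in SEN CM. On scaled counts the serum libraries were all above those in fresh low serum, at 153% of the mean, as were those of both conditioned media, at 192% and 193%. On TPM the 3 sets overlapped the fresh one, at 134%, 132% and 106%. Divided by the median ratio of all transcripts, the ratios in PRO CM and SEN CM were 1.88 and 1.76 on scaled counts and 1.81 and 1.79 on TPM. This entry was separate from Myog, whose means were 2511 in PRO and 14852 in MT_0.25%, a ratio too small for Myog to meet the conditions.

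Castor zinc finger 1, a transcription factor known from neural precursors of the fly and from the vertebrate heart, had scaled counts that overlapped those in MT_0.25% in every medium. The entry comp41734_c0_seq1 had 1558, 1370.1 and 1704 scaled counts in MT_0.25% and 1409, 1623 and 1664 in MT_10%. In PRO CM it had 1505, 1469.7 and 1883, and in SEN CM 1472, 1336 and 1199. The 3 means were 101%, 105% and 86.5% of the MT_0.25% mean on scaled counts, against 90.8%, 75.9% and 48.7% on TPM, where all SEN CM libraries were below the fresh ones.

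Enzymes of small molecule metabolism were represented by Uridine phosphorylase 1, which splits uridine into uracil and a sugar phosphate, and by Ornithine decarboxylase 2, a member of the family that starts polyamine synthesis. Uridine phosphorylase 1 (comp16793_c3_seq1) stood at 6153, 4334 and 4895 scaled counts in MT_0.25%, 5204, 6493 and 6289 under serum, 2528, 2448 and 2874 in PRO CM and 2356, 2269 and 3313 in SEN CM. The serum libraries overlapped the fresh ones, while those of both conditioned media were all below them, at 51.0% and 51.6%. With 224 in SEN, this entry had the ratio of MT_0.25% to SEN nearest to the limit, 22.9.

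For Ornithine decarboxylase 2 (comp272832_c0_seq3) the scaled counts were 1743, 1063 and 1235 in MT_0.25% and 1786, 2246 and 1895 in MT_10%, the latter all higher. They were 2189, 1218 and 1918 in PRO CM and 1995, 1606 and 1869 in SEN CM. Both conditioned medium sets overlapped the fresh one, with means of 132% and 135% on scaled counts and of 117% and 98.6% on TPM. The serum libraries overlapped the fresh ones on TPM, at 133%.

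Of the membrane proteins, a gap junction protein (a subunit of channels between adjoining cells) and the cation channel TRPV2 were kept under serum on scaled counts and stood low in conditioned medium. On TPM their serum means were 96.8% and 74.3% of those in MT_0.25%. The Gap junction protein entry comp370682_c0_seq2 held 919.6, 669 and 1119 scaled counts in MT_0.25% and 912, 1178 and 935 in MT_10%, but 242, 418 and 299 in PRO CM and 319, 301 and 286 in SEN CM. The conditioned medium means were 35.4% and 33.5%, with no overlap. TRPV2, a calcium-permeable channel in mammals, had 157, 138 and 220.5 in MT_0.25% for its entry comp29022_c0_seq2, 128, 161 and 149 in MT_10%, 62.3, 124 and 60.3 in PRO CM and 35.1, 53.1 and 66.7 in SEN CM. The means in conditioned medium were 47.8% and 30.1%. No read was assigned to it in SEN, so that taking 3 counts over the group as the floor its MT_0.25% level was at least 208-fold higher.

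One entry, comp1639906_c0_seq1, resembled the polyprotein of an R2 retrotransposon, a mobile element that inserts into ribosomal RNA genes. It had 11376, 8475 and 10769.5 scaled counts in MT_0.25% and 7450.0, 9200.0 and 8444 in MT_10%. The conditioned medium means were 61.5% and 53.1% of the MT_0.25% mean, and all 6 libraries were below those in fresh medium. On TPM the serum libraries were all below the fresh ones, at 74.8%.

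Much of the signal lay in transcripts without an informative name, which made up 4 of the 5 with the highest MT_0.25% mean. The leading one, comp2776154_c0_seq1, had 83539.9, 60276 and 68430.3 scaled counts in MT_0.25%, 65875, 61159 and 57407 under serum, 25399, 17177 and 28408 in PRO CM and 43677, 33311 and 37175 in SEN CM. The next unnamed one, comp1803_c0_seq1, whose Xenopus hit carries a locus number only, had 30686, 22806 and 26222, then 25110.3, 22973 and 24069, then 8109, 5404 and 9135, then 14099, 10241 and 13416 in the same order of groups. These 2 shared an order of levels in which fresh medium was highest, PRO CM lowest and SEN CM between, with no overlap between the 3 groups held in 0.25% FCS. On TPM the order of the means was the same, but the libraries of the 2 conditioned media overlapped.

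The unnamed comp2903999_c0_seq1 and comp2583969_c0_seq1 were the furthest removed from SEN cells among transcripts with SEN reads. The former had a mean of 25533 ± 3628 in MT_0.25%, 211 ± 29.3 in PRO and 13.0 ± 7.47 in SEN (SD, n = 3), and the latter 20354 ± 2659, 123 ± 40.8 and 8.77 ± 0.468. Ratios of MT_0.25% to SEN were 1972 and 2321. Under conditioned medium the former had 56.6% of its MT_0.25% mean with PRO CM and 42.0% with SEN CM, and the latter 71.1% and 55.5%. The unnamed comp2060450_c0_seq3, at 103% in serum (87.8% on TPM), had 75.8% and 58.2%.

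The lowest shares in conditioned medium belonged to the unnamed comp3035543_c0_seq1, which had 722, 659.8 and 948 scaled counts in MT_0.25% and 702, 849 and 482 in MT_10%. It had 59.1, 121 and 117 in PRO CM and 36.5, 95.0 and 72.3 in SEN CM, or 12.8% and 8.75% of the MT_0.25% mean. At 12.6 in PRO and 17.3 in SEN, this transcript was closer in conditioned medium to its level in mononucleate cells than any other of the 28, by the ratio of the lower conditioned medium mean to the higher of PRO and SEN. An uncharacterized protein named from chicken (comp208116_c0_seq1) had 30.9% and 21.1%, and the unnamed comp26815_c0_seq1 44.8% and 47.9%. LOC398449 (comp23715_c0_seq1), at 1987 ± 424 in MT_0.25%, had 63.3% and 60.1%.

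The highest ratio to MT_0.25% in conditioned medium was that of comp422000_c0_seq1, whose closest hit was a predicted protein of the sea anemone Nematostella. It had 6597, 4284 and 4482 scaled counts in MT_0.25%, 5161, 3841 and 3598 under serum, 10295, 8432 and 22774 in PRO CM and 12970.4, 9796 and 8241 in SEN CM. On TPM the serum libraries were all below the fresh ones, at 74.7%. All 6 conditioned medium libraries were above those in fresh medium, and 1 PRO CM library was more than 2 times either of the others. The 6 were above them on TPM too, with means of 195% and 114%. On scaled counts higher means were also found for the unnamed comp704786_c0_seq1 (184% and 149%), comp1225016_c0_seq1 (202% and 142%) and comp941668_c0_seq1 (156% and 166%), but on TPM the SEN CM means of these 3 were below MT_0.25%, at 82.0%, 77.5% and 93.8%. For comp2747908_c0_seq1 the means were 167% and 191% on scaled counts and 123% and 103% on TPM. Chromosome 1 open reading frame 190 (comp107234_c1_seq1) was at 89.3% and 103% on scaled counts and at 66.7% and 58.9% on TPM, where every library in conditioned medium was below every fresh one.

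Within the limits of the rule, the serum level relative to MT_0.25% ran from 0.802 for the longer desmin entry to 1.81 for the unnamed comp40785_c1_seq1, with a median of 0.939. The latter rested on 2 of its 3 serum libraries, at 971, 2051 and 2104 against 898, 895 and 1040.2 scaled counts in MT_0.25%, and in conditioned medium its means were 70.6% and 63.9% of the latter. A serum level of 0.8 or more was common. Of the 13278 transcripts with an MT_0.25% mean of at least 100, 77.8% had it, with a median ratio of 1.15. The serum and fresh libraries overlapped for 25 of the 28 transcripts and were all higher in serum for 3, namely the myogenic regulatory factor, Ornithine decarboxylase 2 and comp941668_c0_seq1. Over all 23107 transcripts that passed the filter on low counts, 44.9% overlapped, 27.4% were higher and 27.6% lower. On TPM the serum libraries of 21 overlapped the fresh ones, those of 7 were all lower and of 0 all higher, where 53.8%, 30.9% and 15.3% of the 23107 were. There 17 of the 28 (60.7%) had at least 0.8 of their MT_0.25% mean, beside 66.9% of the 13278. The rule used this comparison, so the counts are given as a description.

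The nearest transcripts outside the limits show where the edge of the set lies. Leucine rich repeat containing 3 (comp488144_c0_seq9) stood at 0.775 under serum, and 142 transcripts failed on serum alone. A calpain large subunit (comp5437_c0_seq21) had an MT_0.25% to SEN ratio of 19.7, and a G protein-activated potassium channel (comp572018_c0_seq1) an MT_0.25% to PRO ratio of 18.2, against 21.5 for comp422000_c0_seq1, the nearest inside. On abundance, comp4867948_c0_seq1 had an MT_0.25% mean of 90.7 and comp2747908_c0_seq1 one of 114. With 0.5 or 1 in place of 0.8 for serum the conditions gave 78 or 12 transcripts. Applied to the deposited TPM values they gave 12, but there the minimum for MT_0.25% was 100 TPM, which is not the same bar. Castor zinc finger 1, for example, had an MT_0.25% mean of 1544 scaled counts but 6.12 TPM. The number on TPM therefore mixes the change of scale with a change in the abundance required.

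Named groups can be followed through the 173 transcripts abundant in myotubes, by lists of names that were set with earlier results known. Of 10 in the contractile filament list, 1 was among the 28, 1 was the myosin Myh3.3 set aside by name and 8 were below 0.8 under serum. The other myosin set aside, Myh3.1, is counted among the 8. The filament and membrane skeleton list had 4 of 10 among the 28, the calcium handling list 0 of 6, the chaperone and protein turnover list 0 of 4 and the signalling list 0 of 5. Receptors, channels and membrane proteins had 2 of 10, transcription regulators 2 of 3, and energy and nucleotide metabolism 1 of 4, another being Ckma. Transcripts without an informative name were 16 of 105. Over all 173, 30 (17.3%) had at least 0.8 under serum, those set aside by name included. Among the 4 of the filament and membrane skeleton list, 2 were the desmin entries with the same closest hit. Growth arrest-specific 2 like 1 had the less sure name. On TPM the serum means were 73.9% and 84.8% for the longer and shorter desmin entries. They were 72.3% for Growth arrest-specific 2 like 1 and 101% for Smoothelin-like protein 1. The choice used these values, so the counts describe it and were not tested.

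The 28 transcripts differed among themselves in how far the mononucleate cells differed. SEN libraries were all below PRO libraries for 11 of the 28, all above for 5 and overlapping for 12, where over all 23107 transcripts 27% were lower, 27.6% higher and 45.4% overlapping. On TPM 3 were below, 13 above and 12 overlapping, beside 4.28%, 70.9% and 24.8%, and the median SEN to PRO ratio over transcripts with an MT_0.25% mean of at least 100 was 2.27 there against 0.927 on scaled counts. The rule used both groups. Those above on scaled counts were the longer and shorter desmin entries, Uridine phosphorylase 1, comp704786_c0_seq1 and comp2060450_c0_seq3, the last of which overlapped on TPM. The desmin entries had SEN to PRO ratios of 2.37 and 4.76, while PRO to SEN ratios were 13.2, 16.3 and 14.1 for comp1803_c0_seq1, comp2903999_c0_seq1 and comp2583969_c0_seq1, the 3 that were below on TPM.

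Levels in conditioned medium were not used in the choice, although these libraries had a part in the size factors. Their comparison with fresh low serum shares the MT_0.25% libraries that chose the transcripts, so it is described without a test. In PRO CM 10 of the 28 transcripts (35.7%) had at least 0.8 of their MT_0.25% mean, and in SEN CM 11 (39.3%). Over all 13278 transcripts with an MT_0.25% mean of at least 100 the shares were 71.1% and 72.6%. Over the 143 myotube transcripts below 0.8 under serum they were 58.7% and 46.9%. The median ratio to MT_0.25% was 0.637 in PRO CM and 0.569 in SEN CM for the 28, 0.913 and 0.761 for the 143, and 1.02 and 1.10 for all. On TPM the medians were 0.474 and 0.323 for the 28, 0.668 and 0.436 for the 143, and 0.730 and 0.595 for all. There 8 of the 28 (28.6%) had at least 0.8 of their MT_0.25% mean in PRO CM and 8 in SEN CM, beside 41.4% and 28.2% of all and 37.1% and 14.7% of the 143, so that in SEN CM the share of the 28 stood at that of all transcripts.

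Below 0.5 of the MT_0.25% mean were 9 of the 28 in PRO CM and 10 in SEN CM, where 7.28% and 8.29% of the 13278 were. On TPM they were 18 and 18 (64.3% each), beside 18.8% and 37.1%. Of the 143 myotube transcripts below 0.8 under serum, 18.2% and 23.8% were below 0.5 on scaled counts. On TPM 31.5% and 62.2% of the 143 were, so that in SEN CM the shares of the 28 and the 143 were alike there. In PRO CM the 9 of the 28 on scaled counts were the shorter desmin entry, Growth arrest-specific 2 like 1, the gap junction protein, TRPV2, comp1803_c0_seq1, comp26815_c0_seq1, comp208116_c0_seq1, comp3035543_c0_seq1 and comp2776154_c0_seq1. Above 1.2 times MT_0.25% were 8 in PRO CM and 9 in SEN CM, beside 34% and 42.8% of the 13278, among them the myogenic regulatory factor, Ornithine decarboxylase 2 and Smoothelin-like protein 1 in either medium, but on TPM 6 in PRO CM and 0 in SEN CM, beside 11.9% and 8.88%. After division by the median ratio of all transcripts, 9 and 13 were below 0.5 on scaled counts and 10 and 11 on TPM, and 8 and 9 were above 1.2 on either scale. The shares of all transcripts after this division were not computed, and those above are for undivided ratios, so these counts have no background beside them. PRO CM libraries were all below those in fresh medium for 17 of the 28 and all above for 5, where 19.1% and 18.3% of the 23107 filtered transcripts were. For SEN CM the numbers were 17 and 6, beside 28.4% and 26.4%. On TPM 19 were below and 2 above in PRO CM, beside 30.8% and 7.13%, and 20 below and 1 above in SEN CM, beside 59.1% and 6%. Both sets of counts rest on the same MT_0.25% libraries, so their likeness is no separate result.

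**Figure D2:**
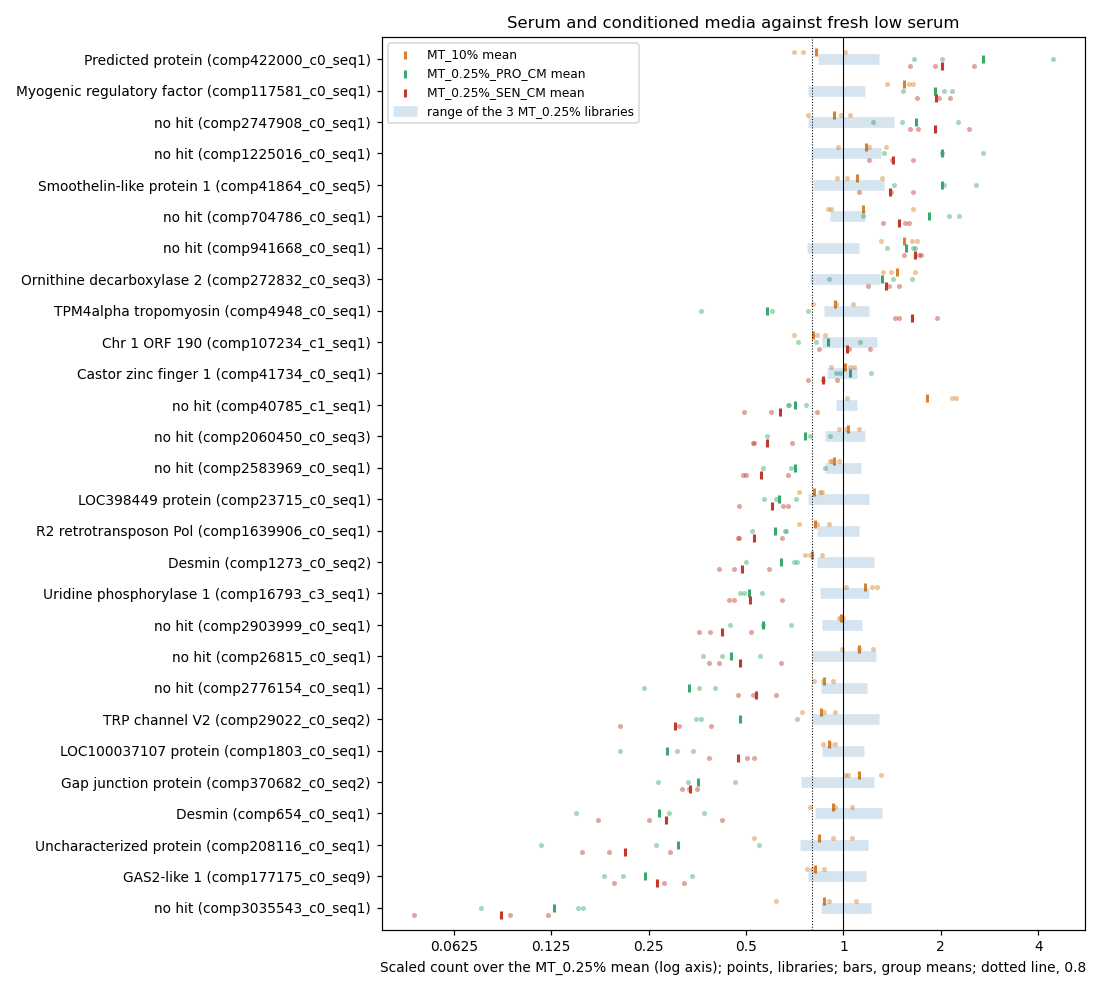
Scaled counts of the 28 transcripts in MT_10%, PRO CM and SEN CM divided by the MT_0.25% mean (log axis), with points for libraries, bars for means of 3, the MT_0.25% range shaded and a dotted line at 0.8. Serum means lie between 0.802 and 1.81, while those in conditioned medium run from 0.0875 to 2.70. On TPM, which is not plotted, none of the SEN CM means was above 1.2 times that in MT_0.25%.

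**Figure D3:**
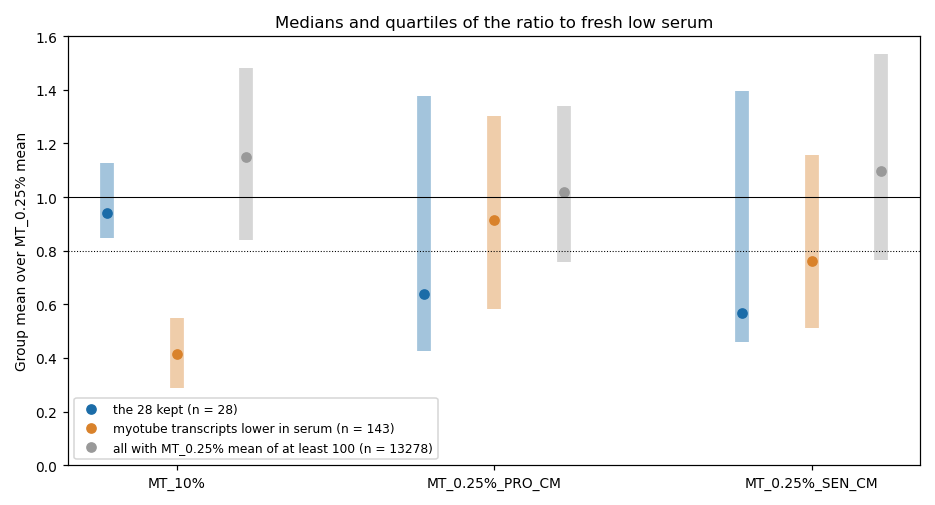
Medians (points) and quartiles (bars) of the group mean of scaled counts over the MT_0.25% mean for the 28 transcripts, the 143 myotube transcripts below 0.8 under serum and all 13278 transcripts with an MT_0.25% mean of at least 100. In both conditioned media the median of the 28 (0.637 and 0.569) is the lowest of the 3 sets, as on TPM (0.474 and 0.323). In the serum panel the condition on MT_10% fixed that the 28 lie above the 143. Against all transcripts the median of the 28 (0.939) is below that of all (1.15). The rule chose high MT_0.25% means, the denominator here, for the 28 but not for all, so this too is a description. Before the condition on serum, the 173 transcripts abundant in myotubes had a median of 0.481.

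In PRO CM 21 of the 28 had means at least 20 times those of PRO and SEN, and in SEN CM 20. On TPM the numbers were 19 and 19. Over the 13278 the shares on scaled counts were 1.27% and 1.22%. The rule had already required low PRO and SEN levels of the 28, so these counts are a description and were not tested. Those of the 28 that fell short on scaled counts included the shorter desmin entry, whose PRO CM mean of 3012 compares with 464 in SEN, and Uridine phosphorylase 1, at 2617 against 224.

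The comparison of the 2 conditioned media asks whether transcript levels with medium from senescent cells differed from those with medium from proliferating cells. The libraries compared had no part in the choice beyond the size factors, but the fit took its filter, scaling and estimate of spread from all 18 libraries. The tropomyosin TPM4alpha was higher with senescent medium, with means of 298 ± 50.5 scaled counts in SEN CM and 107 ± 38.3 in PRO CM (SD, n = 3). Its log2 fold change was 1.47 (SE 0.343), a 2.77-fold difference, with an adjusted p of 0.0115 in edgeR's quasi-likelihood test. It was the one transcript of the 28 that passed the threshold of 0.05, and none was called lower. Over all 23107 tested, 8.34% were called, 3% higher and 5.34% lower. The call on TPM4alpha was lost when the second PRO CM library (adjusted p = 0.0571) or the first SEN CM library (adjusted p = 0.0524) was left out of the edgeR fit, where the log2 fold change was 1.21 and 1.33, and in limma on log2(TPM + 0.1) (adjusted p = 0.0863). The call held with the 6 conditioned medium libraries fitted alone (edgeR adjusted p = 0.00761). In limma on log2(TPM + 1), where the median of all transcripts was -0.20, another 3 of the 28 were called lower in SEN CM. That fit called 1898 of all 23107 transcripts lower.

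Next in size were the abundant unnamed comp1803_c0_seq1 and comp2776154_c0_seq1, whose SEN CM libraries were on scaled counts also all above the PRO CM libraries. Their log2 fold changes were 0.73 (SE 0.240) and 0.68 (SE 0.211), and with adjusted p = 0.0639 and 0.0501 in edgeR they did not pass, whereas DESeq2 called both (adjusted p = 0.037 and 0.0124). Libraries of the 2 media did not overlap for these and TPM4alpha, and overlapped for the other 25. Over all tested transcripts 14.7% did not overlap and were higher and 14.9% were lower. On TPM TPM4alpha alone was higher without overlap, 7 of the 28 were lower and 20 overlapped, comp1803_c0_seq1 and comp2776154_c0_seq1 among them, where 3% of all tested were higher and 26.6% lower.

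No other transcript of the 28 had an unadjusted p under 0.05 in edgeR. The longer desmin entry was at -0.40 on the log2 scale (SE 0.212, edgeR adjusted p = 0.239) and TRPV2, the most negative, -0.66 (SE 0.395, adjusted p = 0.308). For the myogenic regulatory factor it was 0.0055 (SE 0.187), for Uridine phosphorylase 1 0.011 (SE 0.186) and for Ornithine decarboxylase 2 0.030 (SE 0.241). Standard errors over the 28 ran from 0.180 to 0.395 on the log2 scale. Changes of 0.73 (SE 0.240) and 0.68 (SE 0.211) did not pass in edgeR. Differences well above 1 SE could therefore go uncalled with 3 libraries a group.

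The median log2 fold change was -0.12 over the 28 and 0.03 over all tested transcripts, and 12 of the 28 were positive and 16 negative. The 143 myotube transcripts below 0.8 under serum had a median of -0.18, with 6 called (4.2%), all lower in SEN CM. Over all tested transcripts 8.34% were called and 5.34% were called lower, so the share of the 143 was not above that of all. On scaled counts all 17 cell cycle markers had higher means in SEN CM than in PRO CM. So had 8851 of the 13278 transcripts with an MT_0.25% mean of at least 100, with a median ratio of 1.11. The markers were not computed on TPM, and their part in these differences was not tested.

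**Figure D4:**
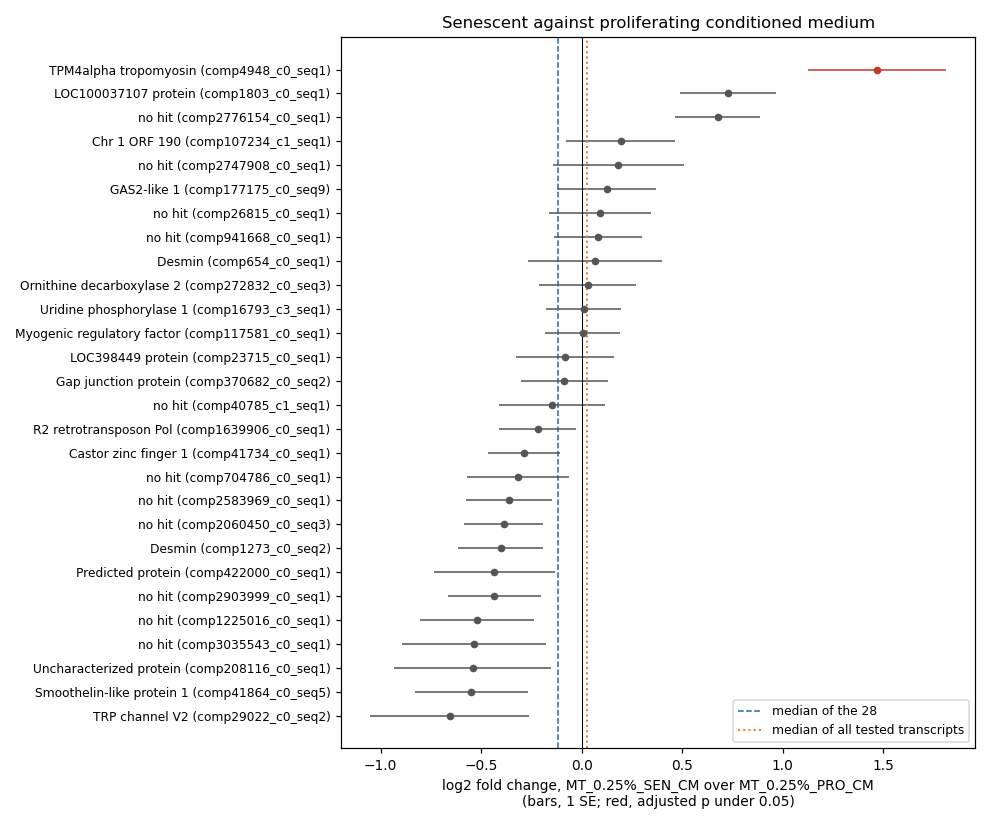
Log2 fold change of SEN CM over PRO CM for each of the 28 transcripts from the edgeR fit, with bars of 1 SE and the medians of the 28 (-0.12) and of all tested transcripts (0.03) as vertical lines. TPM4alpha, at 1.47, is the one with an adjusted p under 0.05.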

How the data were processed

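The authors trimmed reads with Trim Galore and quantified each library with Sailfish on a de novo newt transcriptome (versions not given in the sources used here, and no genome positions apply). The deposited estimated counts, not whole in 59.0% to 74.8% of entries, were rounded here, and the deposited TPM values, scaled by the authors for length and depth, were used for levels and alternatives. Size factors were medians of ratios over the 21144 entries above 0 in every library. The 28 transcripts and the lists of names were chosen with earlier results of these data known.

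The 2 conditioned media were compared in edgeR 4.0.16 (limma 3.58.1, R 4.3.3) by the quasi-likelihood test, with TMM scaling, filterByExpr and 1 mean per group over 18 libraries, which left 23107 transcripts including the 28, and Benjamini-Hochberg adjustment over all of them at 0.05. Each SE was taken as the size of the log2 change divided by the root of F. The code was tested on simulated data. Alternatives were RLE scaling, DESeq2 1.42.0, no filter, the 6 conditioned medium libraries alone, a block for the replicate number, each library left out in turn, and limma with a pseudocount of 1 or 0.1 on log2 TPM.

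Names came from a supplementary table of the paper, by rows whose averages for PRO and MT_0.25% equalled an entry's own scaled means within a relative 0.0001. This matched 1790 of 1985 rows to 1 entry. The table's own identifiers never named the matched entry. Where the entry had a fixed length, the reading frame ended within it for 470 of 476 matched entries, against 427 of 522 by the table's identifiers. Authors' fold changes and p-values were not used. The naming rule covered the 10 most abundant transcripts, the leading ones of each list, those called, and those at the extremes of each ratio or nearest a threshold. The rest of the 28 are named for completeness. No sequences are shown since none came with the data used here.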

Additional observations from a re-analysis of the deposited data

Results flagged for a closer look

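TPM4alpha tropomyosin (comp4948_c0_seq1) stood on opposite sides of its fresh low serum level in the 2 conditioned media on scaled counts, but not on TPM. All 3 MT_0.25%_PRO_CM libraries (111, 66.5 and 143 scaled counts) were below the MT_0.25% mean of 184, and all 3 MT_0.25%_SEN_CM libraries (356, 266 and 273) were above it. On TPM the MT_0.25%_SEN_CM libraries (8.74, 7.48 and 9.76) overlapped those in MT_0.25% (9.20, 9.01 and 10.6), with a mean of 8.66 against 9.62, and the MT_0.25%_PRO_CM mean was 3.89. Divided by the median ratio of all transcripts, the MT_0.25%_PRO_CM ratio was 0.570 on scaled counts and 0.554 on TPM. The MT_0.25%_SEN_CM ratio was 1.48 and 1.51, so after this division the 2 media lay on opposite sides of 1 on either scale. The difference between the 2 media was a log2 fold change of 1.47 (adjusted p = 0.0115 in edgeR's quasi-likelihood test). Groups of 3 libraries are too small to be searched for outlying samples.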

How the results depend on the processing

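The count of transcripts called between the conditioned media, 1927 of 23107 in edgeR, was 1901 with RLE scaling and 2571 with DESeq2. In limma on log2(TPM + 1) and log2(TPM + 0.1) it was 1992 and 1822. When 1 library was left out of the edgeR fit it was 619 to 1818. It was 1268 and 1056 without the first and second MT_0.25%_PRO_CM libraries, and 947 and 619 without the first and second MT_0.25%_SEN_CM libraries. Of the calls 36.0% were higher in MT_0.25%_SEN_CM, against 42.8% in DESeq2 and 4.72% and 4.17% in limma on log2(TPM + 1) and log2(TPM + 0.1). On those 2 scales the median of all transcripts moved from 0.03 to -0.20 and -0.33, and that of the 28 from -0.12 to -0.40 and -0.50, so that relative to all transcripts it was -0.14 in edgeR, -0.20 and -0.17. Leaving out 1 library gave medians of the 28 from -0.25 to -0.088. Members of the 28 called were 2 with RLE scaling (adding comp2776154_c0_seq1, adjusted p = 0.0498), 3 with DESeq2 (adding also comp1803_c0_seq1, adjusted p = 0.037), 4 in limma on log2(TPM + 1), where the longer desmin entry, comp1225016_c0_seq1 and Smoothelin-like protein 1 were called lower, and 0 to 3 without 1 library. In limma on log2(TPM + 0.1) TPM4alpha was lost (adjusted p = 0.0863). The near-zero value of the myogenic regulatory factor turned to -0.062 with the 6 libraries alone, to -0.32 and -0.34 on the TPM scales, and to between -0.14 and 0.11 without 1 library. The cause was not tested.

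The replicate number as a block left 1697 calls and the same 1 of the 28. Correlations of same-numbered libraries of the 2 media were 0.164, 0.036 and -0.19, so the numbers were not taken as pairs.

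The conditions of the rule gave 12 transcripts on deposited TPM, of which 9 are among the 28. There the minimum was 100 TPM in place of 100 scaled counts, so this number does not show the change of scale alone. On scaled counts the conditions gave 46 at 10-fold, 11 at 50-fold, 78 with serum at 0.5 and 12 with serum at 1. They gave 200 with no minimum (the largest number allowed), and 21 to 36 without 1 library. TMM scaling gave the same 28. The numbers at or above 0.8 of MT_0.25%, 10 with PRO CM and 11 with SEN CM, were 8 and 8 on deposited TPM, and 9 to 11 and 11 each time without 1 library. In an alternative chosen after seeing the data, deposited TPM put 18 and 18 below 0.5, against 9 and 10, and 6 and 0 above 1.2 times MT_0.25%, against 8 and 9.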
